A study of Mus musculus with 8 samples.

Results

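Transcripts of 7 genes of the circadian clock were compared between brain cortexes of mice fed with a normal diet and mice fed with a high fat diet. The genes were Arntl, Clock, Npas2, Rora, Nfil3, Cry1 and Cry2, taken by name, and they are 7 of the 13996 genes with values. All 7 were within the filter on low values (a mean of at least 1 FPKM and no FPKM of 0). All mice were male C57BL/6 animals killed under ether anesthesia at 16 weeks of age. The 4 mice of the high fat diet group had received chow with 60% fat by weight for the last 8 weeks, and the 4 mice of the normal diet group a conventional diet. The sources used here do not give the composition of the conventional diet or the hour of day at which the mice were killed. Clock transcripts are known to vary with that hour, and its part in the differences between diets was not tested. Each library came from the cortex of 1 mouse.

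The circadian clock is a transcriptional feedback loop found in nearly all cells. BMAL1, the product of Arntl, pairs with CLOCK or with its paralog NPAS2, and the dimer activates genes through E-box motifs, among them the Per and Cry genes. PER and CRY proteins return to the nucleus and inhibit the dimer. In a second loop the orphan receptor RORα, the product of Rora, activates Arntl and the REV-ERB receptors (Nr1d1 and Nr1d2) repress it through the same motif. NFIL3 is a repressor that competes with DBP, TEF and HLF for D-box motifs. In forebrain tissue the transcripts of Arntl, Clock, Npas2, Nfil3 and Cry1 are known to peak later than, or opposite to, those of the Nr1d, Per and Dbp genes. The list called PER phase below holds this second set together with Tef, Hlf, Ciart, Bhlhe40 and Bhlhe41, 11 genes in all.

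In high fat diet fed mice (HFD) Npas2 and Cry2 were increased, and Nfil3, Arntl and Cry1 were decreased. Npas2 was 1.86-fold higher and Nfil3 1.75-fold lower. These were the only 2 of the 7 genes with a change of over 1.5-fold in either direction. Cry2 was 1.23-fold higher, Arntl 1.20-fold lower and Cry1 1.27-fold lower. Clock and Rora did not pass the test. These 5 of 7 genes had an adjusted p below 0.05 from limma, against 33.1% of the 13982 genes tested. Increased genes were 2 of 7 (17.7% of all genes) and decreased genes 3 of 7 (15.3% of all genes). A change of over 1.5-fold together with the adjusted threshold was found for 2 of 7 genes and for 7.13% of all genes. In 5 of the 7 genes no value of one diet overlapped those of the other, which held for 31.9% of all genes. The median log2 fold change of the 7 genes was -0.26, and that of all genes tested was 0.003. Fold changes (SE, standard error) are HFD minus Normal on the log2(FPKM + 0.1) scale. FPKM, a fragment count scaled by transcript length and library size, carries no depth, so that the reads behind a value are unknown. Values were rounded to 0.1 FPKM.

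**Figure D1:**
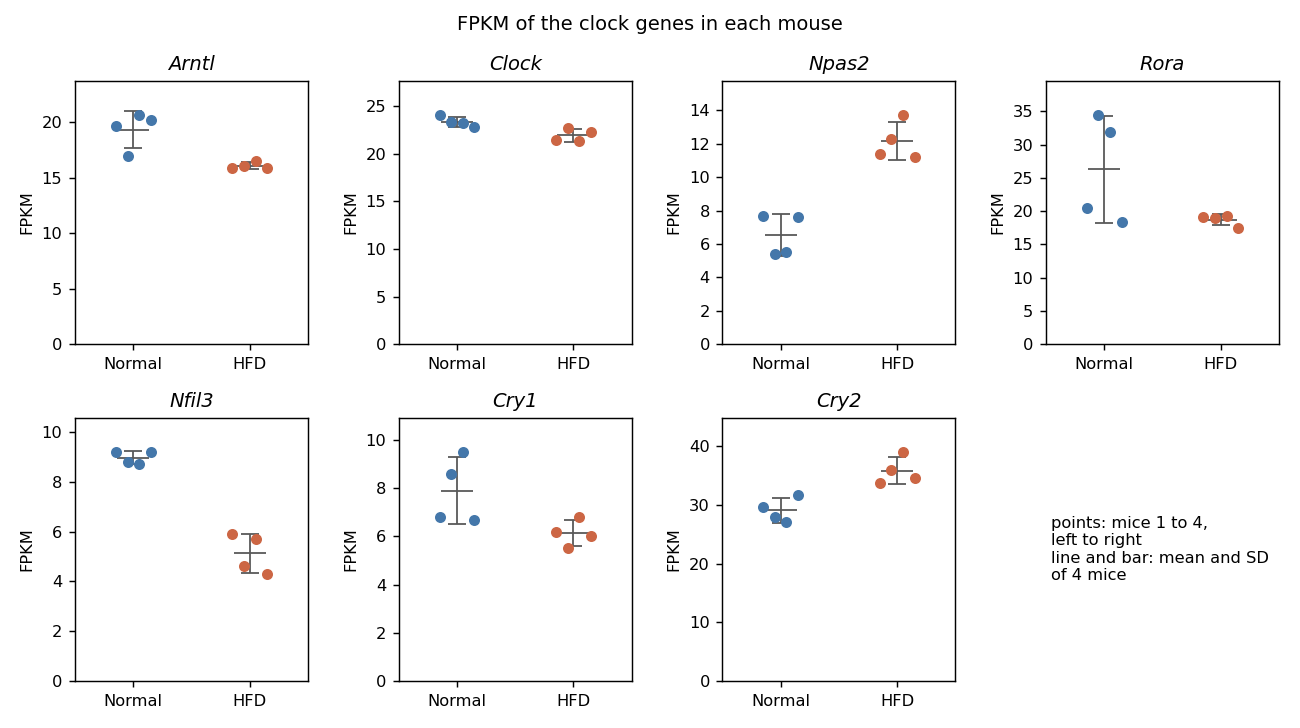
FPKM of the 7 clock genes (vertical axes, from 0) in the 4 Normal and 4 HFD mice. Each point is 1 mouse, with the mean and SD of each diet. Npas2 lies between 5.4 and 7.7 on the normal diet and between 11.2 and 13.7 on the high fat diet, and Nfil3 between 8.7 and 9.2 and between 4.3 and 5.9.

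Levels of marker genes of other brain regions and cell types differed between the libraries, some by diet and some by mouse. Of 7 markers of cortical projection neurons, 6 were increased in HFD mice, and their summed FPKM was 279.5 to 422.3 in normal mice and 467.2 to 555.7 in HFD mice. All 8 striatal markers tested were decreased (sums of 214.7 to 395.5 and of 68.6 to 79.4). Of 4 cerebellar markers tested 3 were decreased. The 5 measured summed to 13.8, 206.8, 285.2 and 60.9 in normal mice 1 to 4 and to between 9.8 and 12.8 in HFD mice, where Gabra6 was listed at 0 in 1 mouse. Of 5 thalamic markers tested 2 were decreased. The 6 measured summed to 31.8, 73.2, 61.3 and 21.6 in normal mice 1 to 4 and to between 16.2 and 20.4 in HFD mice, where Shox2 was listed at 0 in 1 mouse. Normal mice 2 and 3 thus had the highest cerebellar and thalamic marker levels, while normal mouse 1 (cerebellar) and normal mouse 4 (thalamic) were just above the HFD mice. All 6 oligodendrocyte markers were decreased, with sums of 2019.1 to 3338.7 and of 1396.4 to 1937.4. Among 6 markers each, 1 of astrocytes was increased and 2 were decreased, 1 of microglia was increased, and 2 of endothelium and 3 of choroid plexus were decreased. The shares past the threshold were 33.3% for endothelium and 16.7% for microglia, near or below the 33.1% of all genes tested. Those for astrocytes and choroid plexus were above it. Choroid plexus markers summed to at most 79.3 in HFD mice 1 to 3 but to 949.7 in HFD mouse 4, against 345.7 to 733.3 in normal mice. In such bulk tissue, the share of another region in a sample, fewer cells of a type and less RNA per cell cannot be told apart. What made these levels differ was not tested.

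Arntl (ENSMUSG00000055116.8, chromosome 7 of GRCm38, 113207465 to 113314126, plus strand) encodes BMAL1, the partner shared by CLOCK and NPAS2. Its FPKM was 19.6, 16.9, 20.6 and 20.2 in normal mice 1 to 4 and 15.9, 16.0, 16.5 and 15.9 in HFD mice 1 to 4. Every HFD mouse was below every normal mouse, and the nearest values were 16.5 and 16.9. The means were 19.3 ± 1.67 and 16.1 ± 0.287 FPKM (SD, n = 4 each), a log2 fold change of -0.26 (SE 0.07, adjusted p = 0.0141 from limma). Arntl stayed past the threshold whichever single mouse was left out. Leaving out normal mice 2 and 3 together, an alternative chosen after seeing the data, gave -0.31 (adjusted p = 0.00834 from limma). With cerebellar or thalamic markers in the model Arntl was at -0.32 (adjusted p = 0.18) and -0.36 (adjusted p = 0.0812, both from limma), no smaller in size but without passing.

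The promoters of Arntl, Nfil3 and Cry1, the 3 decreased genes, are shown because the loop acts on such genes through short motifs. The windows hold 250 bases before the RefSeq start site and 50 after it (build GRCm38.p6), 5′ to 3′ on the strand of the gene. Capitals mark the motifs found, which were searched on both strands. The motifs were AGGTCA, the core bound by RORs and REV-ERBs, its longer form TAGGTCA, which contains AGGTCA, the E-box CACGTG, and the D-box TTANGTAA. The Arntl window shown, the second of 2, lies on the plus strand at chr7:113207261-113207560. The first Arntl window, at chr7:113207215-113207514, holds none of these motifs. The window of Nfil3 lies on the minus strand at chr13:52980990-52981289, and that of Cry1 on the minus strand at chr10:85185005-85185304.
Arntl: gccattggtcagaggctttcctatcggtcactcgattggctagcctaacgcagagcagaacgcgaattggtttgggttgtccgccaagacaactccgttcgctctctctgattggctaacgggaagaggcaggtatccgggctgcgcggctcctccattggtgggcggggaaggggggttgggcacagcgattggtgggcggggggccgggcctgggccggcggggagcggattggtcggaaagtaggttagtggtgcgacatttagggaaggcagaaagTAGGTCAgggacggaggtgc
Nfil3: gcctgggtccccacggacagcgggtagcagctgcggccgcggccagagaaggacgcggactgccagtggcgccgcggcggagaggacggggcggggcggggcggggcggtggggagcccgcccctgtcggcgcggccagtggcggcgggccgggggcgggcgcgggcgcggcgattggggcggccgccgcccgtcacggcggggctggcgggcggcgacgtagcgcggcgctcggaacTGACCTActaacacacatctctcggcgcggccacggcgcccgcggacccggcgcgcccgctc
Cry1: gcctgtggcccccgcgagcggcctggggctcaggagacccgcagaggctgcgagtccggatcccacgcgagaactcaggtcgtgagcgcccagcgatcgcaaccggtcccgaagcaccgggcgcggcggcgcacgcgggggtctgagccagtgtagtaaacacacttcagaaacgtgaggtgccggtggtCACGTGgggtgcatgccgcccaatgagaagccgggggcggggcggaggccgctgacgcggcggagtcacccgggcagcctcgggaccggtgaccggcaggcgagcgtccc

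TAGGTCA was present in the second of 2 Arntl windows, starting 30 bases after the start site, and in the Nfil3 window on the opposite strand, where its first base in the window is 12 bases before the start site. Among 32851 promoter windows of the genome, 2.61% hold TAGGTCA and 16.3% hold AGGTCA. The Cry1 window holds CACGTG, starting 60 bases before the start site, as do 7.15% of all windows. Outside Arntl and Nfil3, AGGTCA was found in the third of 3 Clock windows, 119 bases before the start site, on the opposite strand. In the windows of Npas2, Cry2 and Rora none of these letters was found, and no window of the 7 genes held TTANGTAA (2.32% of all windows). Of the PER phase genes 9 had windows. AGGTCA was found for 2 of them (Per1 and Nr1d2), TAGGTCA for 0, CACGTG for 4 (Per1, Tef, Ciart and Bhlhe41) and TTANGTAA for 1 (Per3). These are counts of genes, while the genome shares are of windows. Counted by window they were 2, 0, 5 and 1 of 11. For the 7 clock genes, in the same order of motifs, they were 3, 2, 1 and 0 of 10 windows. A match describes the letters of the window, and binding was not measured. Only exact letters were searched for, so sites that differ from them were not found.

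Clock (ENSMUSG00000029238.11, chromosome 5, 76209868 to 76304792, minus strand) encodes the usual partner of BMAL1. It was 24.0, 23.3, 23.2 and 22.8 FPKM in normal mice and 21.4, 22.7, 21.3 and 22.3 FPKM in HFD mice. The diets did not overlap, but the nearest values, 22.8 and 22.7, differed by no more than the rounding of 0.1. Clock had the smallest spread of the 7 genes in normal mice (coefficient of variation 2.14%). Its log2 fold change was -0.09 (95% interval -0.18 to 0.01, adjusted p = 0.134 from limma).

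Npas2 (ENSMUSG00000026077.15, chromosome 1, 39193731 to 39363236, plus strand) encodes the paralog of CLOCK that is known to be abundant in the forebrain. It was 7.7, 5.4, 5.5 and 7.6 FPKM in normal mice and 11.4, 12.3, 13.7 and 11.2 FPKM in HFD mice. Every HFD mouse was above every normal mouse, and within the normal diet mice 2 and 3 were the low pair. Npas2 increased from 6.55 ± 1.27 to 12.2 ± 1.14 FPKM (SD, n = 4 each), a log2 fold change of 0.90 (SE 0.13, adjusted p = 0.00149 from limma). Leaving out single mice gave 0.81 to 0.98. With normal mice 2 and 3 left out it was 0.66 (adjusted p = 0.00529 from limma). Cortical neuron markers, which summed to 298.4 and 279.5 FPKM in normal mice 2 and 3 and to 395.5 and 422.3 in normal mice 1 and 4, had the same low pair. The call was lost when the level of cerebellar or of thalamic markers entered the model, with log2 fold changes of 0.40 (adjusted p = 0.194) and 0.53 (adjusted p = 0.0957, both from limma).

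The ratio of Npas2 to Clock, which occupy the same place beside BMAL1, was taken in each mouse. It was 0.321, 0.232, 0.237 and 0.333 in normal mice and 0.533, 0.542, 0.643 and 0.502 in HFD mice. Clock remained the more abundant transcript in each of the 8 mice. On the log2 scale the ratio was 0.99 higher in HFD mice (exact permutation test over 70 assignments, two-sided p = 0.0286, adjusted p = 0.0286 over the 2 ratios tested). This is the smallest p that 4 against 4 mice can give. All HFD mice were above all normal mice for Npas2 and below them for Clock, so this p was fixed by those values. Npas2 alone differed by 0.90 on the log2 scale. Neither ratio was fitted with region markers or without normal mice 2 and 3.

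Rora (ENSMUSG00000032238.17, chromosome 9, 68653786 to 69388246, plus strand) encodes RORα, which is known to be high in Purkinje cells and thalamic neurons. It was 20.5, 34.4, 31.9 and 18.3 FPKM in normal mice and 19.1, 19.0, 19.2 and 17.5 FPKM in HFD mice. Normal mice 2 and 3 were far above the other 6 mice, whose values overlapped between the diets. These are the mice with the highest cerebellar and thalamic marker levels. Rora had the widest spread of the 7 genes in normal mice (26.3 ± 8.05 FPKM, SD, n = 4) and was 18.7 ± 0.804 in HFD mice. Its log2 fold change of -0.44 (95% interval -0.85 to -0.02) missed the threshold (adjusted p = 0.0952 from limma). It passed only without normal mouse 4 (-0.59, adjusted p = 0.0196 from limma). It was -0.05 without normal mice 2 and 3 (adjusted p = 0.622 from limma), and 0.28 with thalamic markers in the model (SE 0.08, adjusted p = 0.096 from limma).

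Nfil3 (ENSMUSG00000056749.7, chromosome 13, 52967209 to 52981073, minus strand) encodes the D-box repressor, also named E4BP4. It was 9.2, 8.8, 8.7 and 9.2 FPKM in normal mice and 5.9, 4.6, 5.7 and 4.3 FPKM in HFD mice. The normal mice were within 0.5 FPKM of each other, and the highest mouse on the high fat diet was at 5.9. Nfil3 decreased from 8.98 ± 0.263 to 5.13 ± 0.793 FPKM (SD, n = 4 each), a log2 fold change of -0.81 (SE 0.10, adjusted p = 0.000979 from limma). Normal mice 2 and 3 were slightly below normal mice 1 and 4 here (8.8 and 8.7 against 9.2 in both), and without them the change was as large (-0.84, adjusted p = 0.0076 from limma). Nfil3 was the 1 gene of the 7 that kept the threshold with cerebellar markers in the model (-0.93, adjusted p = 0.0464) and with thalamic markers in the model (-0.82, adjusted p = 0.048, both from limma). With striatal markers it was -0.75 (95% interval -2.01 to 0.51) and did not pass, as was the case for all genes.

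Cry1 (ENSMUSG00000020038.10, chromosome 10, 85131700 to 85185064, minus strand) and Cry2 (ENSMUSG00000068742.11, chromosome 2, 92403646 to 92434043, minus strand) encode the cryptochromes, which inhibit the BMAL1 dimers. Cry1 was 6.8, 8.6, 9.5 and 6.7 FPKM in normal mice and 6.2, 5.5, 6.8 and 6.0 FPKM in HFD mice. The diets overlapped, and normal mice 2 and 3 were again the high pair. Cry1 decreased from 7.90 ± 1.38 to 6.13 ± 0.538 FPKM (SD, n = 4 each), a log2 fold change of -0.35 (SE 0.12) with an adjusted p of 0.0492 from limma, just under the threshold. The call was kept only without normal mouse 1 or 4, and was lost without normal mouse 2 or 3 or any 1 of the HFD mice (adjusted p of 0.0501 to 0.127 from limma). Cry1 was at -0.14 (adjusted p = 0.315 from limma) without normal mice 2 and 3, and with cerebellar markers in the model at 0.06.

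Cry2 was 29.6, 27.9, 27.0 and 31.7 FPKM in normal mice and 33.8, 36.0, 39.0 and 34.5 FPKM in HFD mice. All HFD mice were above all normal mice. Cry2 increased from 29.1 ± 2.07 to 35.8 ± 2.31 FPKM (SD, n = 4 each), a log2 fold change of 0.30 (SE 0.06, adjusted p = 0.00735 from limma). It kept the threshold whichever single mouse was left out and missed it without normal mice 2 and 3 (0.22, adjusted p = 0.053), and with cerebellar (0.18, adjusted p = 0.411) or thalamic markers (0.18, adjusted p = 0.3, all from limma) in the model.

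The ratio of Cry1 to Cry2 was 0.230, 0.308, 0.352 and 0.211 in normal mice and 0.183, 0.153, 0.174 and 0.174 in HFD mice. The diets did not overlap, and on the log2 scale the ratio was lower by a difference of -0.65 in HFD mice (exact permutation test, two-sided p = 0.0286, adjusted p = 0.0286 over the 2 ratios tested). Here too this is the smallest p that 4 against 4 mice can give, and it follows largely from values given above. All HFD mice were above all normal mice for Cry2. For Cry1 the highest HFD mouse (6.8 FPKM) exceeded only the lowest normal mouse (6.7 FPKM). Normal mice 2 and 3 held the highest ratios, and normal mouse 4 was nearest to the high fat diet group.

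**Figure D2:**
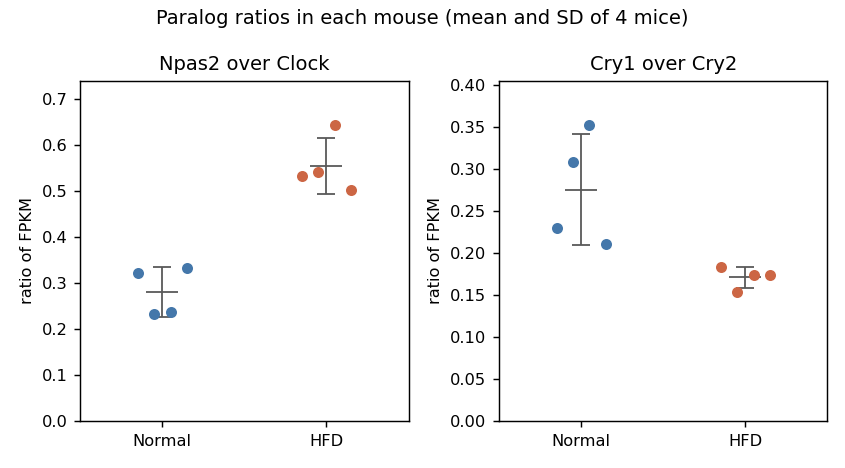
Ratio of FPKM of Npas2 to Clock (left) and of Cry1 to Cry2 (right) in each Normal and HFD mouse, with the mean and SD of each diet and axes from 0. The first ratio is 0.232 to 0.333 in normal mice and 0.502 to 0.643 in HFD mice, and the second 0.211 to 0.352 and 0.153 to 0.183.

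Since FPKM is corrected for transcript length, levels can be ordered between genes. In normal mice the order of mean FPKM was Cry2, Rora, Clock, Arntl, Nfil3, Cry1 and Npas2. The values of Cry2 and Rora, of Rora and Clock, of Nfil3 and Cry1, and of Cry1 and Npas2 overlapped, so these neighbors were not separated beyond the spread between mice. In HFD mice the order was Cry2, Clock, Rora, Arntl, Npas2, Cry1 and Nfil3. There the ranges of the lowest pair, Cry1 and Nfil3, overlapped, although Cry1 was above Nfil3 within each HFD mouse. The other neighbors did not overlap. Npas2 moved from the last to the fifth place and Nfil3 from the fifth to the last. The order is a description without a test.

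**Figure D3:**
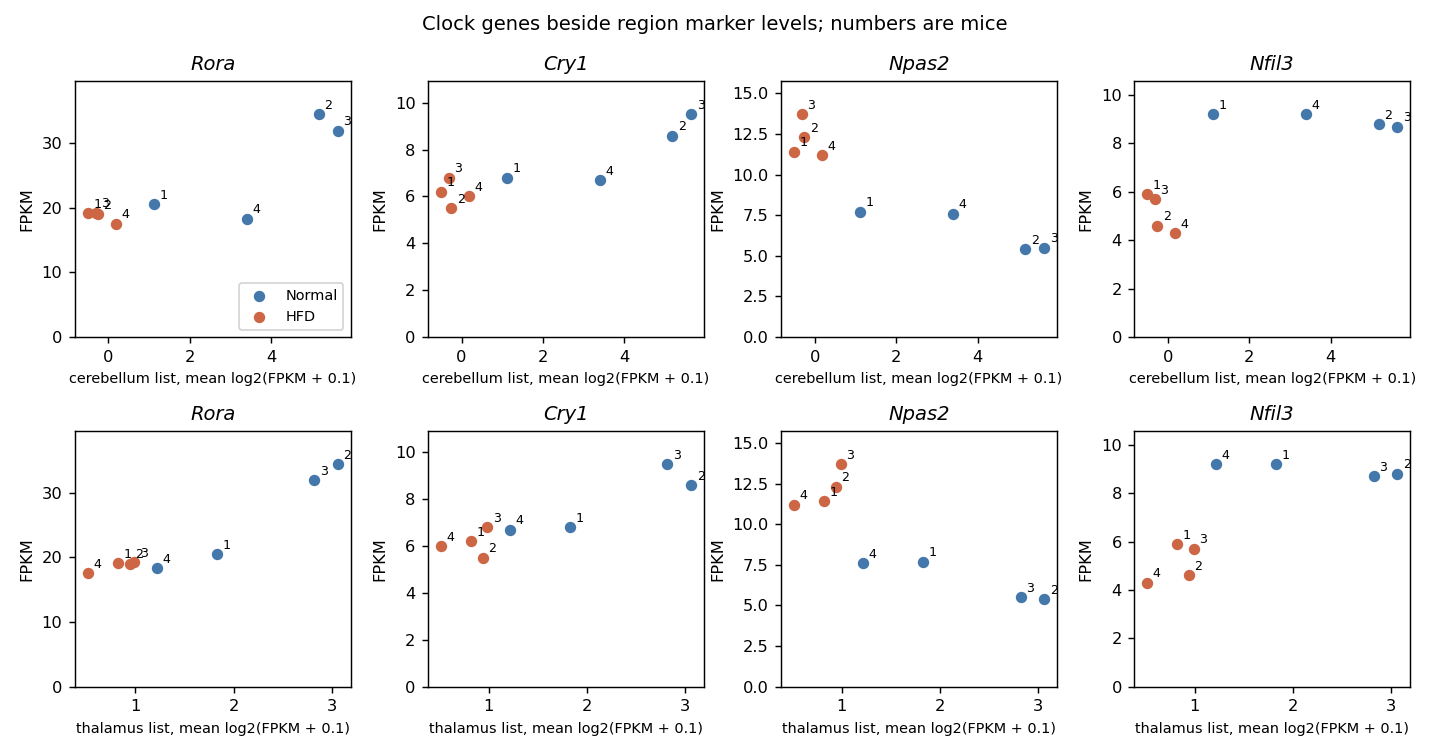
FPKM of Rora, Cry1, Npas2 and Nfil3 (vertical axes, from 0) against the mean log2(FPKM + 0.1) of cerebellar (top) and thalamic (bottom) marker genes in each mouse, numbered within its diet. Normal mice 2 and 3 have the highest marker levels and hold the highest Rora and Cry1 and the lowest Npas2, while Nfil3 is 8.7 to 9.2 in all 4 normal mice.

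The part of cerebellar, thalamic, striatal and cortical RNA in the differences of the 7 genes was not tested beyond the values given here. With the level of cerebellar markers as a covariate, 1 of the 7 genes passed the adjusted threshold, and 284 genes did in all. With thalamic markers these counts were 1 and 358. Striatal markers separated the diets, with a mean log2 of 4.01 to 4.94 in normal mice and of 2.01 to 2.19 in HFD mice. With them in the model 0 of 13982 genes passed limma's adjusted threshold and 296 had an unadjusted p below 0.05, so striatal RNA and diet cannot be told apart. Cerebellar levels (1.12 to 5.64 against -0.51 to 0.18) and thalamic levels (1.22 to 3.06 against 0.51 to 0.99) did not overlap between the diets either. The fits with cerebellar or thalamic markers therefore do not fully separate region RNA from diet. Without normal mice 2 and 3, Arntl, Npas2 and Nfil3 passed, 3 of 7 genes, and 2743 genes did in all. Region differences remained in that setting: striatal markers summed to 395.5 and 214.7 FPKM in normal mice 1 and 4, against 68.6 to 79.4 in HFD mice.

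**Figure D4:**
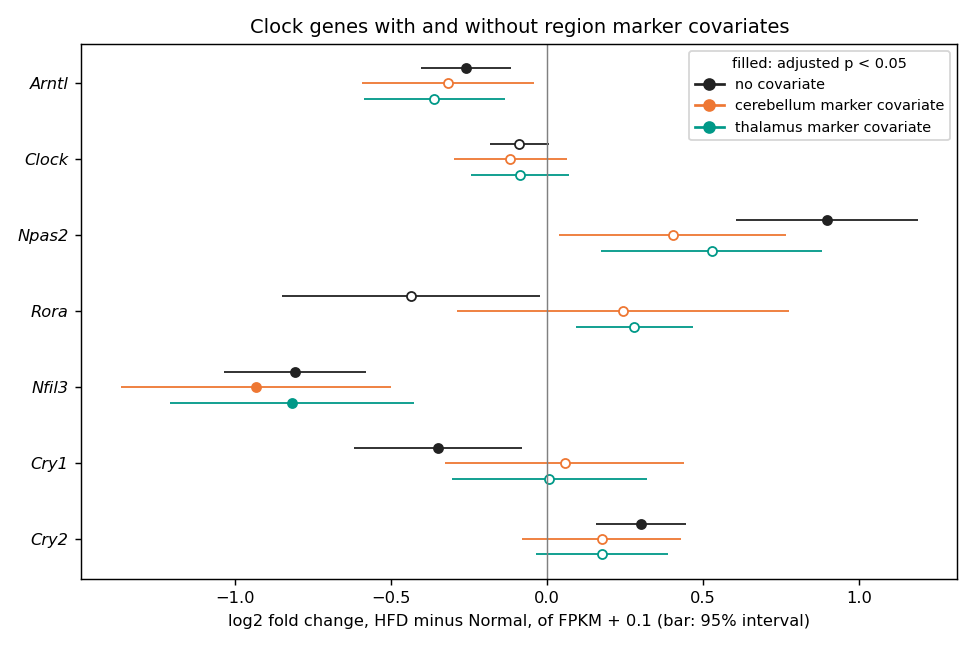
Log2 fold change (HFD minus Normal, of FPKM + 0.1) of each clock gene from limma without a covariate and with the level of cerebellar or thalamic markers as a covariate. Bars are 95% intervals, and filled points have an adjusted p below 0.05. Nfil3 stays between -0.93 and -0.81, Cry1 moves from -0.35 to near 0, and Rora moves from -0.44 to above 0.

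Of 11 PER phase genes, 9 were increased in HFD mice, 0 were decreased, and Per1 and Bhlhe40 did not pass the adjusted threshold of limma. Of all genes tested, 17.7% were increased and 15.3% decreased. The median log2 fold change of the 11 genes was 0.53. The diets did not overlap in 8 of the 11 genes, against 31.9% of all genes. Nr1d1, which encodes the Arntl repressor REV-ERBα, was between 9.7 and 14.2 FPKM in normal mice and between 21.1 and 29.5 in HFD mice (log2 fold change 1.08, adjusted p = 0.000775 from limma). Dbp, the D-box activator that NFIL3 opposes, was between 21.5 and 25.4 FPKM in normal mice and between 43.8 and 47.1 in HFD mice (log2 fold change 0.93, adjusted p = 6.68e-05 from limma).

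Among the period genes, whose products inhibit the BMAL1 dimers with the cryptochromes, Per2 was at 0.68 and Per3 at 0.71 on the log2 scale (adjusted p = 0.0019 and 0.000855 from limma). Per1 was 14.5 ± 1.60 FPKM in normal mice and 16.5 ± 1.11 in HFD mice (SD, n = 4 each), with overlapping values (log2 fold change 0.18, adjusted p = 0.118 from limma). Nr1d2, the paralog of Nr1d1, increased by a log2 fold change of 0.31. The other D-box activators Tef and Hlf were at 0.43 and 0.54, and the E-box repressors Ciart and Bhlhe41 at 0.49 and 0.53. Bhlhe40 was 39.3 ± 5.36 and 37.5 ± 5.89 FPKM (SD, n = 4 each). Of the 11 genes 8 passed without normal mice 2 and 3, as did 2743 of the 13982 genes tested. Hlf was lost there (adjusted p = 0.0515 from limma). With cerebellar markers in the model 2 genes passed, Dbp (1.06) and Nr1d2 (0.55), and with thalamic markers 4, these and Nr1d1 (1.16) and Per2 (0.80). Log2 fold changes of Per2 (0.77), Ciart (0.56) and Bhlhe41 (0.56) with cerebellar markers were no smaller than without, but had larger standard errors and did not pass. Those of Hlf (0.14), Tef (0.27) and Per3 (0.54) were smaller and did not pass, nor did Nr1d1 (0.99).

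**Figure D5:**
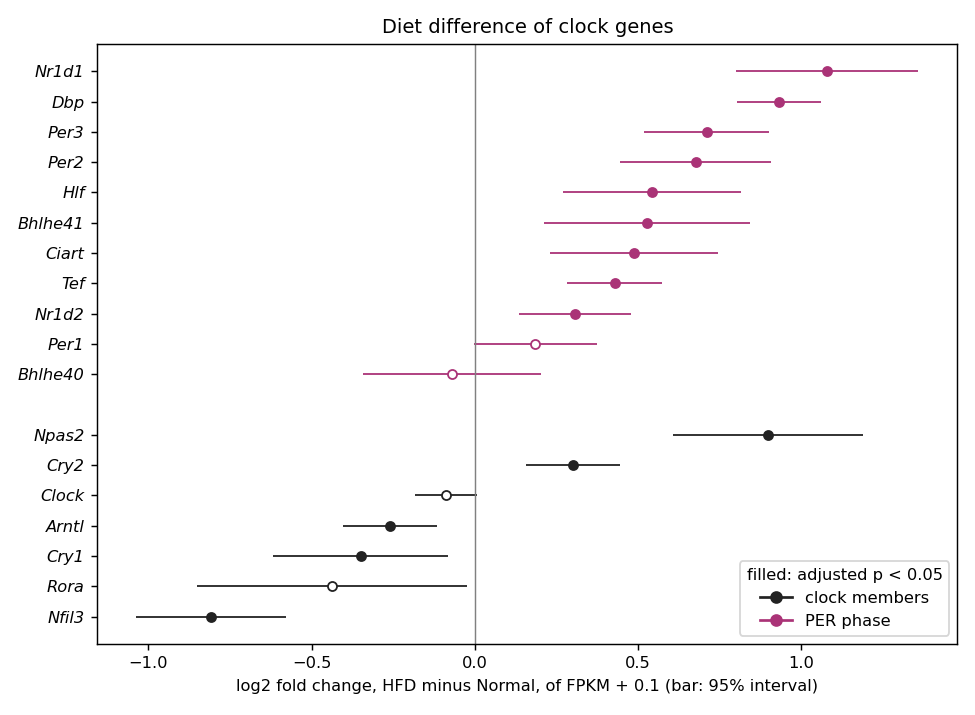
Log2 fold change (HFD minus Normal, of FPKM + 0.1) with its 95% interval for the 7 clock genes (black) and 11 PER phase genes (purple). Filled points have an adjusted p below 0.05. Of the PER phase genes, 9 are filled and above 0, while filled clock genes lie on both sides of 0.

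Of 13 further regulators of the clock tested, 3 were increased, 2 were decreased and 8 did not pass the adjusted threshold, with a median log2 fold change of -0.03. Their share past the threshold, 38.5%, was near the 33.1% of all genes tested. None of the 13 passed the threshold with a change of over 1.5-fold in either direction, against 7.13% of all genes. Arntl2, the paralog of Arntl, increased from 1.75 ± 0.129 to 2.48 ± 0.0957 FPKM (SD, n = 4 each, log2 fold change 0.48, adjusted p = 0.00639 from limma). At this level it was below Arntl in each mouse. Csnk1e, a kinase of PER proteins, and Gsk3b, a kinase with several clock substrates, were at 0.31 (adjusted p = 0.018) and 0.29 (adjusted p = 0.0139, both from limma). Fbxw11, a ubiquitin ligase subunit that acts on PER proteins, was at -0.25 (adjusted p = 0.00176 from limma). Without normal mice 2 and 3, 2 of the 13 passed, as did 2743 of the 13982 genes tested.

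The genes most like each of the 7 were found by the root mean square difference of log2(FPKM + 0.1), centered on the mean of each gene, over the 8 mice and 13981 other genes. They were Fig4 (0.0344) and Fbxl4 (0.0357) for Arntl, Stmn4 (0.0172) and Ufm1 (0.0244) for Clock, and Doc2a (0.0503) and Shank1 (0.0526) for Npas2. For Cry1 they were Zfp658 (0.0593) and Megf10 (0.0616), and for Cry2 Ube2o (0.0274) and Vsnl1 (0.0290). The closest to Rora were Slc6a9 (0.0866) and Nefh (0.0870). Nfil3 had the most distant nearest gene, Sema5a (0.117). None of the genes named here belongs to the clock lists, and the measure is a description.

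Some reads of these genes could belong to genes that overlap them. In GENCODE M21 the exons of Cry2 share 295 of 6320 bp (4.67%) with D930015M05Rik on the opposite strand, those of Rora share 82 bp (0.627%) with Gm15511 and those of Arntl 33 bp (0.439%) with Gm45355, both antisense. The libraries were stranded, but the sources used here do not say whether strand was used in counting.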

How the data were processed

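Cortex RNA of 8 mice, 4 on each diet, was rRNA-depleted and sequenced from both ends as stranded libraries. The authors used Trimmomatic for trimming and STAR with mm10 for alignment, and deposited FPKM from Cuffnorm on the basic GENCODE M17 annotation, with versions not given in the sources used here. FPKM sums per mouse were 562431 to 639142, and depth is unknown. No column of the table was left unused.

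From the deposited FPKM, log2(FPKM + 0.1) was fitted with limma 3.58.1 (R 4.3.3, variance trend, two-sided) and p-values were adjusted by Benjamini-Hochberg over 13982 genes. The 14 genes outside the filter, 12 of them with an FPKM of 0, were left out. The 2 paralog ratios were compared by an exact permutation test (scipy 1.17.1). Promoters came from RefSeq on GRCm38.p6 (7 of 7 genes and 9 of 11 PER phase genes matched) and coordinates from GENCODE M21 on GRCm38. Python 3.11.15, numpy 2.4.6, pandas 2.3.3 and matplotlib 3.10.9 were used, and the fit was tested on simulated data.

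The genes, lists and tests were chosen with earlier results of these data known. Named genes were the 7 clock genes, PER phase genes and regulators past an adjusted p of 0.05, and the 2 genes most like each of the 7. Drd1, Pcp2 and Nampt were not analysed here, and a few genes that the rule names are not reported here. No source says that equal replicate numbers pair mice, and the mice were treated as unpaired. The mice of a diet are separate animals.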

Additional observations from a re-analysis of the deposited data

Results flagged for a closer look

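In 4 groups of 4 mice, 1 mouse lay far from the other 3 by Dixon's criterion, which flags about 1 in 20 groups by chance, and 68 groups were examined. High fat diet fed mouse 3 was at 16.5 FPKM for Arntl, against 15.9 to 16.0 in the others. High fat diet fed mouse 4 was at 17.5 FPKM for Rora, against 19.0 to 19.2. The same mouse was at 105.6 FPKM for Tef, against 96.9 in each of the others, and at 2.73 for the mean log2(FPKM + 0.1) of endothelial markers, against 2.92 to 2.94.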

How the results depend on the processing

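Leaving out single mice gave log2 fold changes of -0.32 to -0.23 for Arntl, -0.11 to -0.08 for Clock, 0.81 to 0.98 for Npas2, -0.88 to -0.73 for Nfil3, -0.42 to -0.26 for Cry1, 0.26 to 0.35 for Cry2 and -0.59 to -0.29 for Rora. The call changed for Cry1 in 6 of 8 fits and for Rora in 1. The differences of log2 ratio were 0.90 to 1.07 for Npas2 over Clock and -0.77 to -0.53 for Cry1 over Cry2, where 3 against 4 mice cannot give a p below 0.0571. With other added constants, filters, scalings or array weights, the 7 clock genes kept their direction and their side of the threshold. Cry1 missed it without the variance trend (-0.35, adjusted p = 0.064) and with the replicate block (-0.35, adjusted p = 0.0531, both from limma). The replicate block also left 2 of 5 regulators and changed no call of the other 6 clock genes. Same-numbered mice did not deviate together (correlations of -0.109 to -0.028, against -0.059 to 0.093 for different numbers). That alone does not show how the numbers were given.

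Region marker covariates moved most values, in the order cerebellum, thalamus and striatum: Arntl -0.32, -0.36 and -0.54, Npas2 0.40, 0.53 and 0.58, Cry1 0.057, 0.007 and -0.054, Cry2 0.18, 0.18 and -0.062, and Rora 0.24, 0.28 and 0.41. With striatal markers Clock was at 0.053, Gsk3b at -0.03 and Nfil3 at -0.75 without passing. Genes past the limma threshold were then 284 (138 higher, 146 lower), 358 (197 and 161) and 0 (0 and 0). With striatal markers 296 had an unadjusted p below 0.05 from limma. Genes that also changed over 1.5-fold in either direction were 194, 175 and 0. These counts compare with 4626 (2480 and 2146) and 997 without a covariate. Of the clock genes 1, 1 and 0 passed, of PER phase genes 2, 4 and 0, and of regulators 0, 0 and 0. Without normal mice 2 and 3, chosen after seeing the data, 2743 genes passed (1528 higher, 1215 lower, 604 over 1.5-fold). Among them were 3 clock genes (Cry1 at -0.14 and Cry2 at 0.22 missed) and 2 regulators. An added constant of 1 left 603 genes over 1.5-fold, and a mean of at least 5 FPKM left 422. The cause of these shifts was not tested. Depth is unknown, and rounding limits genes near 1 FPKM.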
